A study of Mus musculus with 21 samples.

Results

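The genes described here are 10 basic leucine zipper (bZIP) transcription factors of the AP-1, BATF and Bach2 groups: Fos, Fosb, Fosl2, Jun, Junb, Jund, Batf, Batf3, Bach2 and Atf3. They were chosen by gene name in the table of regularised log values and followed through their gene identifiers into the table of read counts, which holds 47643 genes. Of the 10, 9 were found by name and passed the filter of at least 10 reads over all libraries, which 15300 genes passed. Batf3 (ENSMUSG00000026630) was not in the table of regularised log values; it was matched by identifier, had 7 reads in total over 21 libraries and was not tested. The highest value was 3 reads in 1 of the 80 μg libraries at 4 h, and the control libraries had 0 reads, which allows up to 3 reads in each of them.

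The samples were CD4+ T cells of Tg4 Tiger Nr4a3-Tocky mice, in 7 groups of 3 libraries. These mice carry a transgenic T cell receptor (TCR) for a peptide of myelin basic protein (MBP), an Il10-GFP reporter and a Timer reporter, a fluorescent protein that turns from blue to red with age and is driven by Nr4a3, a gene induced by TCR signalling. Untreated mice formed the control group, and the other groups were given [4Y] MBP peptide under the skin without adjuvant, at a dose of either 0.8 μg or 80 μg, and were taken at 4 h, 12 h or 24 h. Cells came from the spleen and were sorted as blue without red at 4 h, blue and red at 12 h and red without blue at 24 h, so time after injection and Timer gate cannot be told apart; the gate of the untreated cells is not given in the sources used here. Replicates were separate mice, whose cells were labelled with different CD4 antibody colours and sorted side by side, and same-sex littermates were allotted to groups at random, per the study's methods. The p-values measure the spread between these libraries.

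AP-1 is a dimer of a FOS family and a JUN family protein that binds DNA together with NFAT downstream of the TCR, and together they switch on cytokine genes such as Il2. BATF proteins have no transactivation domain of their own and pair with JUN proteins, often beside IRF4 or IRF8. Bach2 pairs with small MAF proteins, acts as a repressor at AP-1-like sites and is known for keeping T cells in a naive or memory state, and one of its best known targets is Prdm1. ATF3 is a stress-induced bZIP protein.

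Library totals ran from 2352800 to 6244279 reads. Values below are normalised counts, the read count of a gene divided by the DESeq2 size factor of its library; 3 reads, the limit that a count of 0 allows, corresponded to 1.85 to 4.28 normalised counts, which covers counting error only. A gene was called higher or lower when its Benjamini-Hochberg adjusted p in the DESeq2 Wald test over all genes was under 0.05 and its shrunken log2 fold change was above 1 in size. All 6 comparisons with untreated cells share the same 3 control libraries. The CD4 T cell markers Cd3e and Cd4 were present in every group, with group means of 317 to 911 for Cd3e and 219.9 to 1040 for Cd4, the lowest Cd4 mean being that of 80 μg at 4 h. The third library of 0.8 μg at 12 h stood apart from the other two of its group (chi-square per degree of freedom over genes 14.8 and 14.4 against them, and 3.35 between them). Member calls that changed without it are given with and without it, and values of the other genes only with it. The second library of 80 μg at 12 h also stood apart, to a lesser degree (8.70 and 9.49, and 4.87 between the others).

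Promoter sequence is shown for Fos and for the 4 members called between doses at some time (Fosl2, Junb, Batf and Bach2). Each is the run of 250 bases before the RefSeq start on GRCm38.p6, 5′ to 3′ on the strand of the gene, and all 10 members matched an entry; capitals mark TGACG, the core of a cAMP response element, and GGAAA, the core of an NFAT site, each searched on both strands (the latter reads TTTCC where it lies on the other strand). The windows are chr12:85473640-85473889 (plus) for Fos, chr5:32136222-32136471 (plus) for Fosl2, chr8:84978749-84978998 (minus) for Junb, chr12:85686470-85686719 (plus) for Batf and chr4:32417185-32417434 (plus) for Bach2. Those of Fosl2 and Bach2 lie inside the annotated genes, which start at 32135801 and 32238804, so they precede internal starts. The Batf window spans the annotated gene start at 85686669.
Fos: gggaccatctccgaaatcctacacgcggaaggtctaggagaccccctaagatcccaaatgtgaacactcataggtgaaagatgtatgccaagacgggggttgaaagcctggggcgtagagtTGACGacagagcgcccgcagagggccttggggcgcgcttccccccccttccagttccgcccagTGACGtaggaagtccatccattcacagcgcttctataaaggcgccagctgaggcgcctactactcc
Fosl2: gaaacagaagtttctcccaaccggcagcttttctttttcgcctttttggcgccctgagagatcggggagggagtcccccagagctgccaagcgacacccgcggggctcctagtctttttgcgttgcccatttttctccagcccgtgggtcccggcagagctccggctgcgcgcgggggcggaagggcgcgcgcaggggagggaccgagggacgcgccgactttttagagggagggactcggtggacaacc
Junb: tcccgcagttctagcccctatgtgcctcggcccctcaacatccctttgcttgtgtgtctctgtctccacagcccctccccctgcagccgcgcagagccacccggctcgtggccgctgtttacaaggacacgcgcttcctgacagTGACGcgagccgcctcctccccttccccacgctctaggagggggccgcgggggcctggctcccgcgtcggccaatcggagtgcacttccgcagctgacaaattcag
Batf: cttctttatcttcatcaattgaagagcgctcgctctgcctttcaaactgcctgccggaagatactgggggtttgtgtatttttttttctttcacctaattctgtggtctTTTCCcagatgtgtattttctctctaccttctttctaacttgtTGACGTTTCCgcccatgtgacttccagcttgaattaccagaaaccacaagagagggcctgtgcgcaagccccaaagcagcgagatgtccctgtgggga
Bach2: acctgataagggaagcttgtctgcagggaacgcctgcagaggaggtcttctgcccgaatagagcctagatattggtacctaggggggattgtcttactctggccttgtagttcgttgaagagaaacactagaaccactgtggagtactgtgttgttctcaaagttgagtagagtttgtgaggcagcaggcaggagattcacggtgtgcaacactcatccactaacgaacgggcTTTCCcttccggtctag
TGACG stood 129 and 66 bases before the start of Fos, 106 before that of Junb and 98 before that of Batf, where it runs straight into an NFAT core at 93; Batf had another NFAT core at 141 and Bach2 had 1 at 17. Among the 10 members, 5 windows held TGACG (Fos, Fosb, Junb, Batf and Atf3), against 17.8% of 32851 RefSeq promoters of the same length. The NFAT core was in 4 of the 10 (Jun, Batf, Batf3 and Bach2), against 55.6% of all promoters. The Fosl2 window held neither. The full element TGACGTCA, which contains TGACG, was in 0 of the 10 and in 1.55% of all promoters; the AP-1 site TGANTCA was in 0 and 6.75%, and the CArG box, the site of SRF, in 0 and 1.47%. These are matches of letters in this window and say nothing about binding.

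In the annotation (GENCODE M21, GRCm38) Fos, at chr12:85473890-85477273 on the plus strand, and Batf, at chr12:85686669-85709087 on the plus strand, lie 209 kb apart with Jdp2 as the 1 protein-coding gene between them. Atf3 and Batf3 lie 61.4 kb apart on chromosome 1, with 1 protein-coding gene between them. Junb, at chr8:84974484-84978718 on the minus strand, shares 173 exon bases at its 3′ end with Prdx2 on the opposite strand. The strand setting of the authors' counting is not given in the sources used here. Whether it kept reads of the 2 genes in these bases apart is not known. Prdx2 means were 171 normalised counts with 0.8 μg and 157 with 80 μg at 4 h, where the Junb means were 789.5 and 1660. The Prdx2 libraries of the doses overlapped there, at 157 to 197 and 132 to 171. Later Prdx2 was nearer to Junb in level, with means of 251 and 289 at 12 h and 285 and 290 at 24 h. Junb means were 276 and 359 at 12 h and 345 and 272 at 24 h. The part of Prdx2 reads in the Junb values was not tested. Bach2, at chr4:32238804-32586108, holds Bach2it1 in an intron on the same strand, which had 380 reads against 15341 for Bach2.

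**Figure D1:**
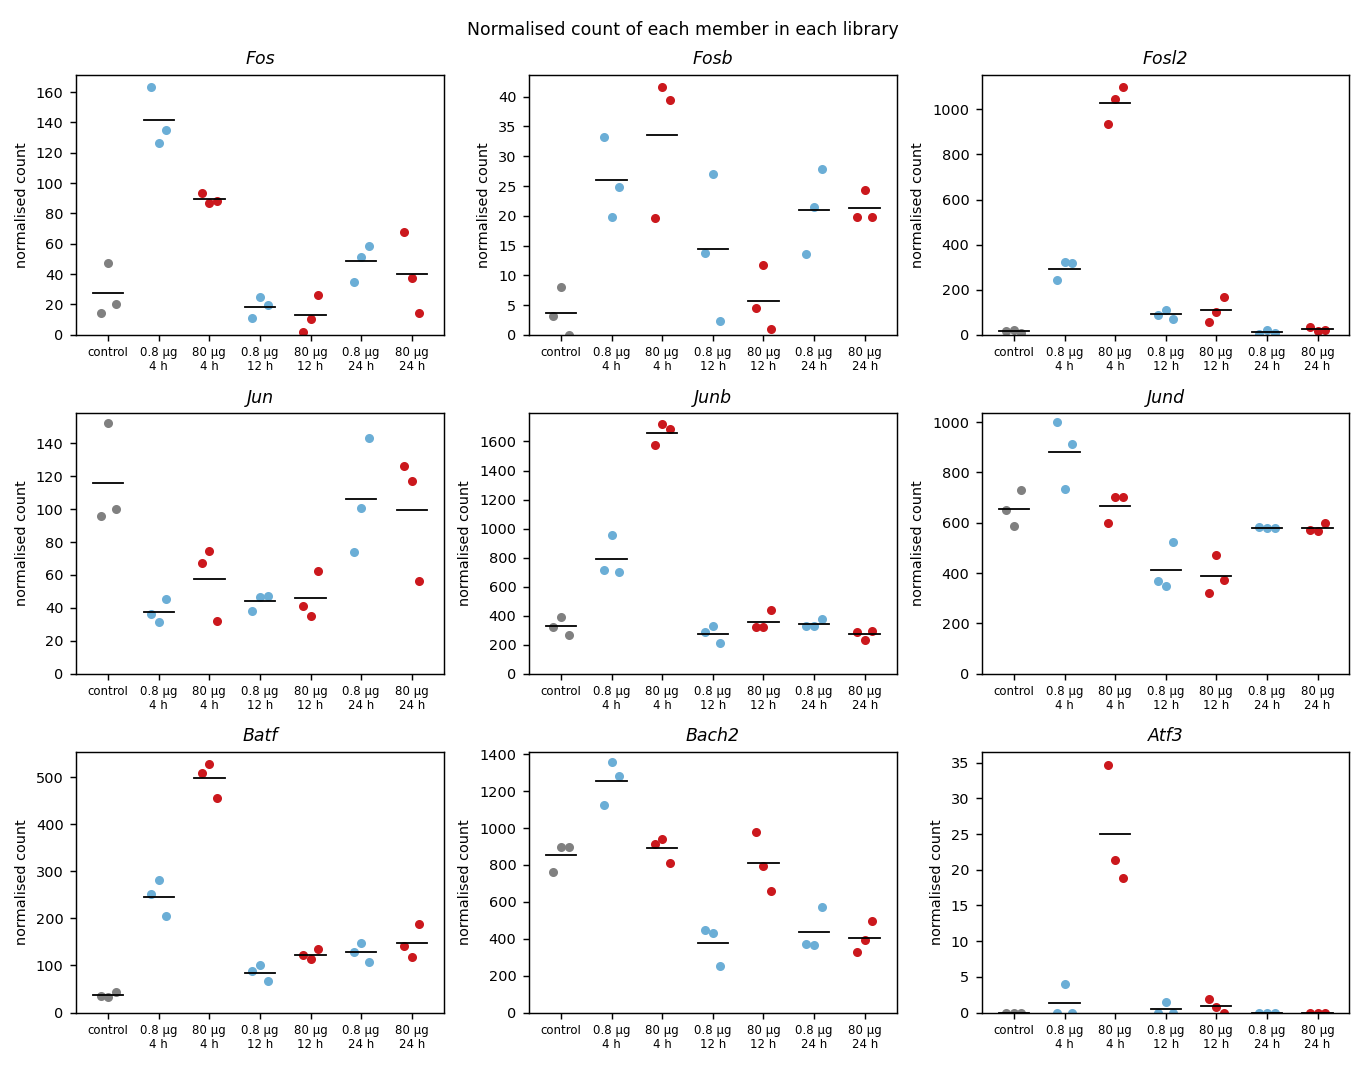
Normalised counts (vertical axis, linear, scaled for each gene) of the 9 tested members in each library of the 7 groups; points are libraries (n = 3 a group, grey control, blue 0.8 μg, red 80 μg) and bars are means. Fosl2, Junb, Batf and Atf3 are highest with 80 μg at 4 h, Fos, Jund and Bach2 with 0.8 μg at 4 h, and Jun in untreated cells.

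At 4 h most members stood above untreated cells. With 0.8 μg, 5 of 9 tested members were called higher (Fosl2, Batf, Fosb, Fos and Junb) and 1 lower (Jun), where 17.3% of 13518 genes tested were called higher and 23.4% lower. With 80 μg, 6 of 9 were called higher (the same 5 and Atf3) and 0 lower, where 18.4% were called higher and 25.1% lower (Jun was lower by p alone, at -0.99; edgeR's quasi-likelihood test also called 0 lower, and 5 of 13 alternatives called Jun lower). The median shrunken log2 fold change over the 8 members other than Batf3 and Atf3 was 1.74 with 0.8 μg and 1.96 with 80 μg, against -0.13 and -0.15 over all genes tested.

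At 12 h and 24 h fewer members were called against untreated cells than at 4 h. The shares of all genes called were also lower at 24 h. At 12 h, 3 of 9 were called higher with 0.8 μg (Fosl2, Fosb and Batf) and 2 lower (Bach2 and Jun), where 17.2% of all genes tested were called higher and 20.5% lower; with 80 μg, 2 were called higher (Fosl2 and Batf) and 1 lower (Jun), where the shares of all genes were 17.8% and 20.1%. At 24 h, Fosb and Batf were called higher with both doses, where 11.5% of genes with 0.8 μg and 12.3% with 80 μg were. Bach2 was called lower with 80 μg at 24 h, where 7.91% of all genes were, and no member was called lower with 0.8 μg, where 5.84% were; at an unadjusted p under 0.05 the count there was 1 (Bach2), and edgeR's quasi-likelihood test called 0 lower. Batf was the 1 member called higher in all 6 comparisons with untreated cells.

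**Figure D2:**
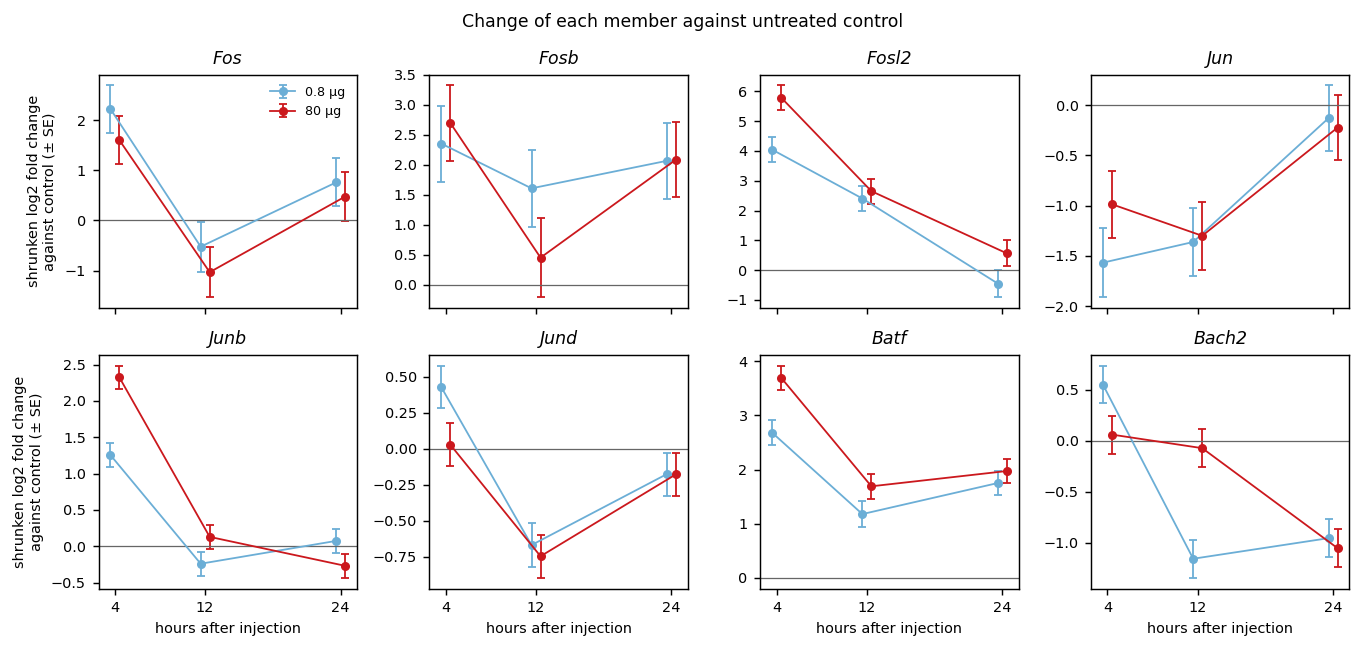
Shrunken log2 fold change against untreated control (vertical axis, ± SE) at 4 h, 12 h and 24 h after injection (horizontal axis) for 8 members, blue 0.8 μg and red 80 μg, n = 3 libraries a group. Fosl2 falls back from 4.05 and 5.79 at 4 h to within 1 of 0 at 24 h, whereas Batf stays above 1 at each time.

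Among the FOS family genes, Fos, the immediate early partner of JUN proteins, was higher at 4 h. Untreated libraries had 14.4, 20.0 and 47.7 normalised counts of Fos. With 0.8 μg at 4 h they had 126, 135 and 164, and with 80 μg 87.2, 88.3 and 93.8. All 6 libraries at 4 h lay above the control libraries, and each 0.8 μg library lay above each 80 μg library. The shrunken log2 fold change of Fos against control was 2.23 ± 0.47 (SE; adjusted p = 1.01e-05) with 0.8 μg and 1.60 ± 0.48 (adjusted p = 0.00182) with 80 μg; without the third control library the latter had an adjusted p of 0.0587. The difference between doses did not pass (log2 -0.63 ± 0.46, unshrunken 95% interval -1.61 to 0.29, adjusted p = 0.478).

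By 12 h Fos was back in the range of untreated cells or under it. The libraries had 10.8, 20.0 and 24.8 normalised counts of Fos with 0.8 μg and 1.83, 10.3 and 26.2 with 80 μg. Neither dose passed against control (log2 -0.52 ± 0.50, adjusted p = 0.389, and -1.03 ± 0.50, adjusted p = 0.0712). The 80 μg result was the same in 11 of 13 alternatives, with adjusted p from 0.00162 to 0.57. The fall from 4 h to 12 h was called with both doses, with shrunken log2 fold changes of -2.75 ± 0.48 (adjusted p = 1.22e-07) and -2.63 ± 0.49 (adjusted p = 5.76e-07). At 24 h the libraries had 35.0, 51.3 and 58.8 with 0.8 μg and 14.2, 37.5 and 67.9 with 80 μg. Neither dose passed against control there (adjusted p = 0.221 and 0.46). The 0.8 μg result was the same in 12 of 13 alternatives, with adjusted p from 0.0294 to 0.54. Fos was called higher at 24 h than at 12 h with 0.8 μg (log2 1.28 ± 0.49, adjusted p = 0.0209) and with 80 μg (log2 1.51 ± 0.49, adjusted p = 0.00611), but the 80 μg groups overlapped. Without any 1 of 5 of the 6 libraries concerned the 0.8 μg call was lost (adjusted p up to 0.109), as it was with the filterByExpr filter (adjusted p = 0.0571). The 80 μg call was lost without the first library of 80 μg at 12 h or at 24 h (adjusted p 0.0742 and 0.13) and with only the 6 libraries compared in the fit (adjusted p = 0.24).

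Fosb, which gives the full-length FosB and a shorter form with less transactivation, was low in untreated cells, with 0, 3.09 and 8.11 normalised counts (up to 8 reads). At 4 h the libraries had 19.8, 24.8 and 33.3 with 0.8 μg and 19.7, 39.4 and 41.6 with 80 μg. All lay above the control libraries, with shrunken log2 fold changes of 2.35 ± 0.63 (adjusted p = 7.13e-04) and 2.70 ± 0.63 (adjusted p = 8.16e-05). At 12 h the values of Fosb were spread widely, at 2.35, 13.7 and 27.1 with 0.8 μg and 0.972, 4.57 and 11.7 with 80 μg. The 0.8 μg call at 12 h (log2 1.61 ± 0.64, adjusted p = 0.0248) rested on groups that overlapped, and was lost without the second 0.8 μg library at 12 h (adjusted p = 0.298), without the first or the third control library (adjusted p 0.0814 and 0.121), or with only the 6 libraries compared in the fit (adjusted p = 0.082). At 24 h Fosb was again above every control library, at 13.6, 21.4 and 27.9 with 0.8 μg and 19.7, 19.7 and 24.3 with 80 μg, and the log2 fold changes were 2.07 ± 0.63 (adjusted p = 0.00523) and 2.09 ± 0.63 (adjusted p = 0.00421). Levels with the 2 doses overlapped at each time, and no dose difference of Fosb passed. From 12 h to 24 h with 80 μg Fosb was called higher (log2 1.63, adjusted p = 0.0166), which was lost without the first or the third library at 12 h (adjusted p 0.0637 and 0.101) or without the second at 24 h (adjusted p = 0.0587).

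Fosl2, which encodes Fra-2, had the largest shrunken log2 fold change against control of the tested members. Untreated libraries had 8.57, 17.5 and 19.3 normalised counts. At 4 h they had 241, 318 and 323 with 0.8 μg, and 934, 1048 and 1100.0 with 80 μg. The groups did not overlap, and the shrunken log2 fold changes against control were 4.05 ± 0.42 (adjusted p = 9.3e-21) and 5.79 ± 0.42 (adjusted p = 1.46e-41). The difference between doses at 4 h was called (log2 1.75 ± 0.37, 3.36-fold, adjusted p = 5.49e-05), and it was called in each fit that left out 1 of the 6 libraries.

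At 12 h the dose difference of Fosl2 did not pass. The libraries had 71.6, 88.2 and 111 normalised counts with 0.8 μg and 57.6, 101 and 166 with 80 μg. These groups overlapped (log2 0.25 ± 0.38, unshrunken interval -0.52 to 1.03, adjusted p = 0.843). Both lay above every control library, with log2 2.41 ± 0.42 and 2.65 ± 0.42. At 24 h Fosl2 was at 4.87, 8.26 and 19.6 with 0.8 μg and at 15.5, 20.95 and 36.2 with 80 μg, both overlapping the control libraries. The 24 h dose difference (log2 1.01 ± 0.44, unadjusted p = 0.02) had an adjusted p of 0.176, and of 0.0356 without the second 0.8 μg library at 24 h.

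Of the JUN family, Junb, a JUN protein that in T cells is a main partner of BATF, was also highest with 80 μg at 4 h. Untreated libraries had 269.8, 319 and 392 normalised counts. With 0.8 μg at 4 h they had 698, 713 and 958, and with 80 μg 1575, 1687 and 1718. The groups did not overlap; against control the shrunken log2 fold changes were 1.26 ± 0.16 (adjusted p = 1.09e-13) and 2.32 ± 0.16 (adjusted p = 2.31e-45). Junb was 2.10-fold higher with 80 μg than with 0.8 μg at 4 h (log2 1.07 ± 0.16, adjusted p = 6.48e-10). Without the third 0.8 μg library the log2 value was 0.99, under the fold threshold, with an adjusted p of 1.16e-06.

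After 4 h Junb was near the level of untreated cells. At 12 h the libraries had 210.2, 285 and 332 with 0.8 μg and 318, 322 and 437 with 80 μg, all but 2 within the range of the control libraries. At 24 h they had 327, 331 and 378 with 0.8 μg and 234, 285 and 296 with 80 μg. These last groups did not overlap, and here the 80 μg libraries were the lower ones, but the difference did not pass (log2 -0.34 ± 0.17, unadjusted p = 0.0381, adjusted p = 0.255). The fall from 4 h to 12 h was called with both doses, at log2 -1.50 ± 0.16 (adjusted p = 2.29e-18) with 0.8 μg and -2.20 ± 0.16 (adjusted p = 5.9e-41) with 80 μg.

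Jun, the founding JUN gene, went the other way. It was highest in untreated cells, at 95.9, 99.9 and 152 normalised counts. At 4 h the libraries had 31.6, 36.3 and 45.3 with 0.8 μg and 31.7, 67.1 and 74.6 with 80 μg, and at 12 h 38.2, 46.6 and 47.0 with 0.8 μg and 35.2, 41.1 and 62.2 with 80 μg. Each of these 12 libraries lay under each control library. Jun was called lower with 0.8 μg at 4 h (log2 -1.57 ± 0.35, adjusted p = 1.93e-05), and at 12 h with 0.8 μg (log2 -1.36 ± 0.34, adjusted p = 1.79e-04) and 80 μg (log2 -1.30 ± 0.34, adjusted p = 3.21e-04). With 80 μg at 4 h it passed the adjusted p (0.00669) but stood just inside the fold threshold, at -0.99 ± 0.33. Of 13 alternatives 5 called it lower: scaling to library totals (-1.14), and leaving out the first or the third control library (-1.09 and -1.07) or the first or the second 80 μg library (-1.08 and -1.20). Not counted among these, no shrinkage (-1.015) and adjusted p alone also put it lower. Without the second control library or the third 80 μg library the adjusted p was lost as well (0.0817 and 0.0845). By 24 h Jun overlapped the control libraries, with means of 106 and 99.7. The libraries had 74.0, 101 and 143 with 0.8 μg and 56.1, 117 and 126 with 80 μg, so the lowest of each dose lay under every control library. Jun was called higher at 24 h than at 12 h with both doses, but the 80 μg groups overlapped. With 0.8 μg that call fell under the fold threshold without the third 0.8 μg library at 24 h (log2 0.96). With 80 μg it did so in 6 of 13 alternatives: 4 of the 6 fits without 1 library (log2 0.88 to 0.9972), library-total scaling (0.86) and only the 6 libraries compared (0.99).

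Jund, the JUN gene known for steady expression in resting cells, was not called against control at any time. Untreated libraries had 586, 652 and 729 normalised counts. At 4 h it was at 732, 914 and 1000.3 with 0.8 μg and at 599.5, 701 and 702 with 80 μg. The 0.8 μg libraries lay above the control libraries (log2 0.43 ± 0.15, adjusted p = 0.00857), whereas the 80 μg libraries overlapped them. The dose difference at 4 h was -0.40 ± 0.15 (adjusted p = 0.0544), and did not pass. At 12 h Jund was lower than in untreated cells with both doses by adjusted p, at log2 -0.67 ± 0.15 (adjusted p = 3.1e-05) and -0.75 ± 0.15 (adjusted p = 2.66e-06), short of the fold threshold. At 24 h it was at 577, 579 and 582 with 0.8 μg and 567, 569.8 and 599 with 80 μg, and neither passed against control. The fall from 4 h to 12 h was called with 0.8 μg (log2 -1.10 ± 0.15, adjusted p = 4.82e-12). It fell short of the fold threshold in 3 alternatives, at -0.96 with libraries scaled to their totals, -0.9968 without the first 0.8 μg library at 4 h and -0.99 without the second 0.8 μg library at 12 h.

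Batf, which pairs with JUN proteins, was called higher than control at each time with both doses. Untreated libraries had 32.5, 36.1 and 44.3 normalised counts. At 4 h the libraries had 205, 251 and 281 with 0.8 μg, and 456, 509 and 528 with 80 μg. The groups did not overlap; the shrunken log2 fold changes against control were 2.68 ± 0.23 (adjusted p = 2.93e-31) and 3.70 ± 0.22 (adjusted p = 2.56e-60). The dose difference at 4 h was called (log2 1.01 ± 0.18, 2.02-fold, adjusted p = 6e-07), but the fold stood so near the threshold that it fell under it without any 1 of 3 libraries (log2 0.90 to 0.99; the third 0.8 μg and the first and second 80 μg libraries), with adjusted p up to 1.95e-04.

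At 12 h Batf had fallen with both doses and was at 66.9, 87.2 and 100.0 with 0.8 μg and at 113, 122 and 134 with 80 μg. Each library was still above each control library, and each 80 μg library was above each 0.8 μg library, yet the dose difference did not pass (log2 0.51 ± 0.20, adjusted p = 0.117). At 24 h the libraries had 107, 129 and 147 with 0.8 μg and 118, 140.3 and 188 with 80 μg, and these overlapped (log2 0.22 ± 0.19, unshrunken interval -0.16 to 0.60). Against control Batf was called higher at 24 h with 0.8 μg (log2 1.75 ± 0.23, adjusted p = 5.05e-13) and 80 μg (log2 1.97 ± 0.23, adjusted p = 8.33e-17). With 0.8 μg the rise from 12 h to 24 h passed the adjusted p (log2 0.57 ± 0.20, adjusted p = 0.0119) short of the fold threshold.

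Atf3 was detected almost only in 1 group. With 80 μg at 4 h the libraries had 18.9, 21.3 and 34.7 normalised counts (22, 22 and 30 reads). Untreated cells and both groups at 24 h had 0 reads, and the other groups had 2 or 3 reads in total. Against untreated cells this was at least 7.19-fold higher, taking 3 reads in each control library as the floor. Against 0.8 μg at 4 h, 74 reads stood against 3, a ratio of 21.6 with an exact 95% counting interval of 7.10 to 107. That interval pools the reads of each group and leaves out the spread between libraries. DESeq2 called Atf3 higher than control with 80 μg at 4 h (adjusted p = 0.0322), but the adjusted p was over 0.05 in 5 of the 6 fits without 1 library (0.0548 to 0.206), with no filter on low counts (0.0504) and with the replicate block (0.119). In the DESeq2 Wald test its dose difference at 4 h had an unadjusted p of 0.122 (unshrunken 95% interval -1.14 to 9.70). The adjusted p was not given by DESeq2, which leaves out genes of low mean, while the edgeR and 6-library fits called it.

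Bach2 was at its highest with 0.8 μg at 4 h. Untreated libraries had 761, 898 and 898 normalised counts. At 4 h they had 1123, 1279.8 and 1356 with 0.8 μg and 813, 914 and 940.4 with 80 μg. The 0.8 μg libraries lay above every control library (log2 0.55 ± 0.19, adjusted p = 0.00655), and the 80 μg libraries overlapped the control. The dose difference at 4 h pointed to lower values with 80 μg (log2 -0.49 ± 0.18), and did not pass (adjusted p = 0.0619) although the groups did not overlap. Its adjusted p ran from 3.48e-05, with only the 6 libraries compared in the fit, to 0.256 with library-total scaling, and was 0.0493 in edgeR; the log2 value was short of the fold threshold in each alternative.

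At 12 h the order of doses for Bach2 was reversed. The libraries had 254, 433 and 448 normalised counts with 0.8 μg, and 657, 792 and 980.2 with 80 μg. Each 0.8 μg library lay under each control library and under each 80 μg library, whereas the 80 μg libraries overlapped the control. Bach2 was called lower than control with 0.8 μg (log2 -1.16 ± 0.19, 2.23-fold lower, adjusted p = 3.92e-09), and was not distinguished from control with 80 μg (log2 -0.07 ± 0.19, unshrunken interval -0.44 to 0.29). It was 2.12-fold higher with 80 μg than with 0.8 μg (log2 1.08 ± 0.19, adjusted p = 7.65e-07). The lowest value was that of the third 0.8 μg library; without it the dose difference was 0.87 (adjusted p = 8.09e-05) and the change against control -0.94 (adjusted p = 7.5e-07), both short of the fold threshold. Without the second 80 μg library the dose difference was 1.10 (adjusted p = 2.47e-05), without the first it was 0.92 (adjusted p = 3.78e-04), and with only the 6 libraries in the fit 0.94 (adjusted p = 6.78e-06).

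From 4 h to 12 h Bach2 thus fell with 0.8 μg (log2 -1.71 ± 0.19, 3.27-fold, adjusted p = 3.03e-18), and with 80 μg the value was -0.13 ± 0.18 (adjusted p = 0.602). From 12 h to 24 h it was lower by adjusted p with 80 μg (log2 -0.98 ± 0.19, adjusted p = 8.11e-07), just short of the fold threshold, and with 0.8 μg the value was 0.20 ± 0.19 (adjusted p = 0.411). Of 13 alternatives for the 80 μg step, 8 also fell short and 5 passed: library-total scaling (-1.18), edgeR with TMM, only the 6 libraries compared (-1.07), and leaving out the third 80 μg library at 12 h (-1.11) or at 24 h (-1.14). At 24 h both doses had like levels, 366, 374 and 572 with 0.8 μg and 329, 394 and 497 with 80 μg, all under the control libraries. The change against control was -0.95 ± 0.19 (adjusted p = 3.01e-06) with 0.8 μg and -1.05 ± 0.19 (adjusted p = 1.6e-07) with 80 μg, on either side of the fold threshold; the latter was -0.92 without the first 80 μg library, and the former was past the threshold with library-total scaling (-1.07), without the first control library (-1.03) or without the third 0.8 μg library (-1.19). In bulk samples, fewer cells with a transcript and less of it in each cell cannot be told apart.

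Because B cells also express Bach2, their markers are given beside it. Over 10 B cell and plasma cell markers the summed normalised counts ran from 1368 to 1660 in untreated cells, from 154 to 332 at 4 h, from 145 to 398 at 12 h and from 1122 to 1707 at 24 h. In untreated cells most of this was Ighm (mean 1150.5). The defining marker Cd79a had group means of 0 to 4.3 and Ms4a1 of 12.5 to 58.0. At 12 h the sums of the doses overlapped, at 149 to 398 with 0.8 μg and 145 to 334 with 80 μg. Of 7 B cell markers tested between doses at 12 h, 1 was called lower with 80 μg (Pax5) and 0 higher, where 0.96% of all genes were called lower. Against control at 12 h, 4 of 8 were called lower with 0.8 μg and 6 of 8 with 80 μg, and 0 higher, where 20.5% and 20.1% of all genes were called lower. CD8 T cells also express Bach2. The summed counts of Cd8a and Cd8b1 at 12 h were 139.9 to 181 with 0.8 μg and 45.7 to 75.8 with 80 μg. Both genes were called lower with 80 μg, where 0.96% of all genes were. The sum over 9 CD4 T cell markers was 12171 to 13341 in untreated cells, 6732 to 8445 at 4 h, 5446 to 6722 at 12 h and 12266 to 14625 at 24 h. Summed myeloid markers stayed between 16.3 and 167 and summed NK cell markers between 2.16 and 69.9 in every library. Summed erythroid and platelet markers varied more, from 20.6 to 788 over the libraries. At 24 h these were 181 to 788 with 0.8 μg and 73.6 to 285 with 80 μg. The part of other cell types in these changes was not tested.

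Set side by side, 3 of 8 tested members were called between doses at 4 h, 1 at 12 h and 0 at 24 h. Atf3 had no adjusted p from DESeq2 in these comparisons and is not counted. At 4 h Fosl2, Junb and Batf were called higher with 80 μg, where 3.12% of 10848 genes tested were called higher and 2.74% lower. At 12 h Bach2 was called higher, where 1.83% of genes were called higher and 0.96% lower. At 24 h 0.89% of all genes were called higher and 0.673% lower; 2 of the 8 members had an unadjusted p under 0.05 there (Fosl2 and Junb), and edgeR's quasi-likelihood test called 0.

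**Figure D3:**
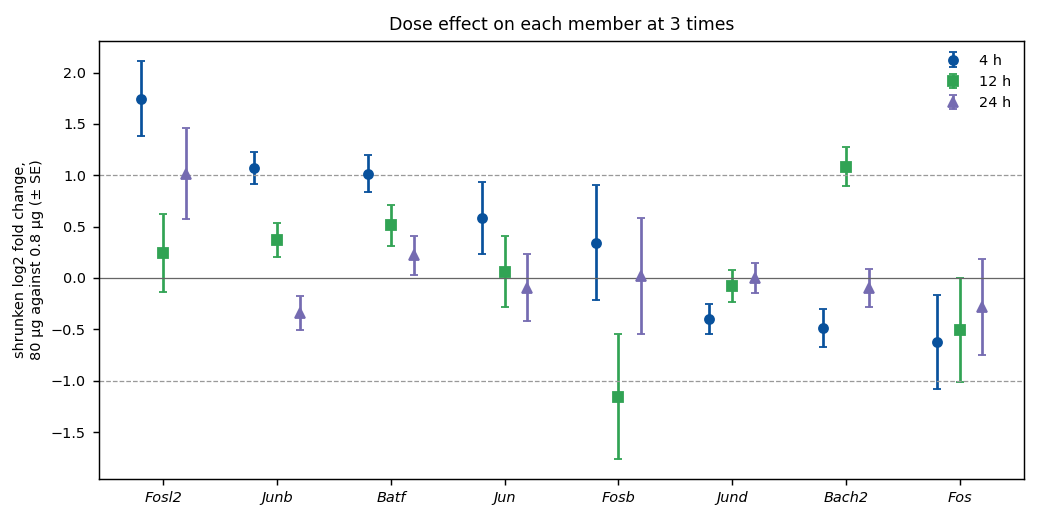
Shrunken log2 fold change of 80 μg against 0.8 μg (vertical axis, ± SE) for 8 members at 4 h (blue circles), 12 h (green squares) and 24 h (purple triangles), n = 3 libraries a group; dashed lines mark the fold threshold of 1. Fosl2, Junb and Batf are past 1 at 4 h, and Bach2 goes from -0.49 at 4 h to 1.08 at 12 h.

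Whether the dose effect itself changed with time was tested in the 18 immunised libraries with a likelihood ratio test of the dose by time terms in DESeq2. Of 8 members tested, 2 passed, Junb (adjusted p = 1.41e-07) and Bach2 (adjusted p = 1.07e-06), where 10.4% of 9958 genes tested did. For Junb the log2 dose effects were 1.07 at 4 h, 0.37 at 12 h and -0.34 at 24 h. For Bach2 they were -0.49, 1.08 and -0.10. Batf (adjusted p = 0.0757) did not pass, nor did Fosl2 (adjusted p = 0.142), which had an adjusted p of 9.27e-04 in edgeR's quasi-likelihood test. Leaving out 1 library moved both past the threshold in some cases. Batf passed without the third 0.8 μg library at 12 h (adjusted p = 0.0408) or at 24 h (0.0374), or without the third 80 μg library at 24 h (0.00925). Fosl2 passed without the first (adjusted p = 0.0171) or the third (6.6e-06) 80 μg library at 12 h, or without the second 0.8 μg library at 24 h (0.0422).

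From 4 h to 12 h every member called was called lower. With 0.8 μg these were 6 of 9 (Fos, Fosl2, Junb, Jund, Batf and Bach2), where 7.98% of all genes were called lower and 12.6% higher. With 80 μg they were 5 (Fos, Fosb, Fosl2, Junb and Batf), where 9.1% were called lower and 15.7% higher. The later step went both ways: from 12 h to 24 h, Fos and Jun were called higher and Fosl2 lower with 0.8 μg, where the shares of all genes were 17.1% and 9.48%; with 80 μg Fos, Fosb and Jun were called higher and Fosl2 lower, where they were 16.7% and 10.5%. Fosl2 was thus called lower at each step with both doses, at log2 -2.85 ± 0.43 and -2.09 ± 0.40 from 12 h to 24 h.

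Genes with the pattern most like each member were found over the 7 group means of regularised log values, among 8753 genes whose mean normalised count was 20 or more. Spry1, an inhibitor of receptor tyrosine kinase signalling, and Myc were nearest to Fosl2, with root mean square differences of 0.44 and 0.49 on the log2 scale where Fosl2 itself ranged over 6.06. Sh3bp2, an adaptor protein, was nearest to Batf (0.22, range 3.48) and Map3k8, a kinase, the third (0.36). Tagap1 was nearest to Bach2 (0.23, range 1.73), with Foxp1, a transcription factor of naive T cells, the third (0.25). Mbp was nearest to Fos (0.29, range 3.17), followed by Fas and Zfp36l1 (0.32 each). Gm37255 was nearest to Jun (0.0885, range 1.41), followed by Zfand6 and Dcaf5 (0.12 each), and Sik2, a kinase, was nearest to Jund (0.11, range 1.16). The nearest genes to Junb were Gm42515 and Gdap10 (0.17 and 0.18, range 2.56). Likeness is over 7 points from shared libraries and is a description.

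Of 37 other bZIP genes in a list of partners and relatives, 31 were tested against control. Those called at 4 h numbered 11 higher and 5 lower for 0.8 μg, and 16 and 5 for 80 μg, where 17.3% of all genes tested were called higher and 23.4% lower for 0.8 μg, and 18.4% and 25.1% for 80 μg. Fosl1, which encodes Fra-1, had 0 reads in untreated cells, 12.9 to 18.2 normalised counts with 0.8 μg and 66.0 to 79.7 with 80 μg at 4 h. The small MAF genes that pair with BACH proteins were also higher at 4 h: Maff rose from a mean of 2.04 to 49.7 and 119, Mafg from 78.5 to 301 and 551, and Mafk from 49.9 to 217 and 266. Bach1 had a mean of 85.4 in untreated cells, 235 with 0.8 μg and 131 with 80 μg at 4 h, and 20.6 and 17.0 at 12 h, where it was called lower than control with both doses. Jdp2, which lies between Fos and Batf, had 0 reads in all 6 libraries at 4 h and was called higher than control with 80 μg at 24 h, at 6.57 to 19.7. With 0.8 μg at 24 h Jdp2 was not called, but its values of 7.79 to 9.29 overlapped those with 80 μg.

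Between doses at 4 h, 7 of 28 tested bZIP relatives were called higher with 80 μg and 0 lower, where 3.12% of all genes were called higher and 2.74% lower. The median log2 fold change over the 28 was 0.11, against -0.02 over all genes. Bach1 (-0.83, adjusted p = 0.0204) and Creb1 (-0.62, adjusted p = 4.4e-06) were lower short of the fold threshold. Mafg (0.87, adjusted p = 1.68e-05) and Nfe2l2 (0.78, adjusted p = 5.55e-05) were higher short of it. The 7 called higher were Maf, a factor of Il10-producing T cells (mean 37.2 with 0.8 μg and 476 with 80 μg, log2 3.56 ± 0.35), Crem (30.1 and 233, log2 2.91 ± 0.29), Nfil3, Fosl1, Cebpb, Atf6 and Maff. At 12 h Maf, Nfil3 and Atf6 were called higher and Tef lower, of 30 tested, where 1.83% of all genes were called higher and 0.96% lower. At 24 h Maf and Cebpb were called higher and 0 lower, of 26, where the shares were 0.89% and 0.673%. Maf was the 1 gene of the list called higher with 80 μg at each time.

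**Figure D4:**
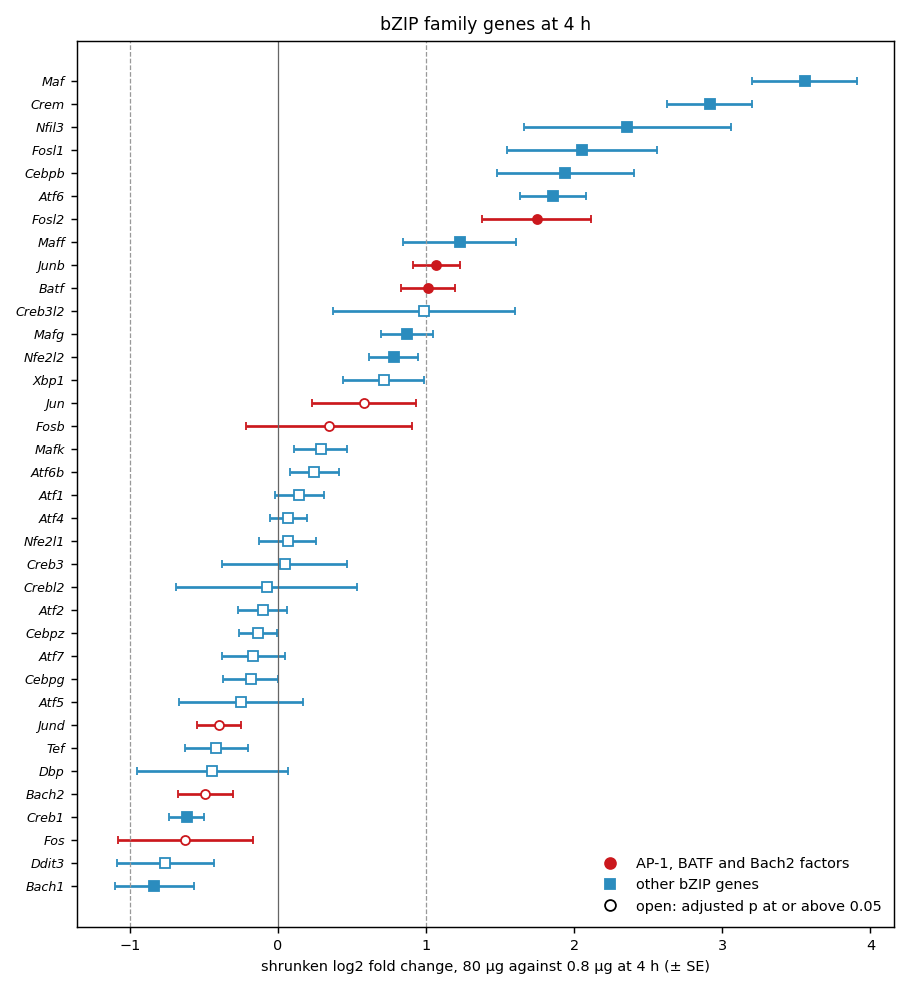
Shrunken log2 fold change of 80 μg against 0.8 μg at 4 h (horizontal axis, ± SE, n = 3 libraries a group) for 8 AP-1, BATF and Bach2 factors (red circles) and 28 other bZIP genes (blue squares), in order; open symbols have an adjusted p at or above 0.05 and dashed lines mark the fold threshold of 1. Maf (3.56) and Crem (2.91) stand above Fosl2 (1.75), and Bach1 (-0.83) is the lowest.

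Of the BATF partners Irf4 and Irf8, both rose with both doses at each time. Irf4 had a mean of 12.6 normalised counts in untreated cells, 1118 with 0.8 μg and 3361 with 80 μg at 4 h, 537 and 1089 at 12 h, and 127 and 79.0 at 24 h. Irf4 was called higher with 80 μg at 4 h (log2 1.58 ± 0.15, adjusted p = 3.93e-24) and 12 h (log2 1.01 ± 0.15, adjusted p = 3.95e-09), while at 24 h it was lower by adjusted p (log2 -0.66, adjusted p = 0.00822). Irf8 means went from 65.2 to 3456 with 0.8 μg and 12128 with 80 μg at 4 h, and the dose difference at 12 h did not pass (log2 0.22, adjusted p = 0.47). Prdm1, which encodes Blimp-1, was at 42.8 in untreated cells, 2.57 with 0.8 μg and 26.0 with 80 μg at 4 h, 9.63 and 99.0 at 12 h, and 16.2 and 43.1 at 24 h. It was called lower than control with 0.8 μg at each time, and higher with 80 μg than with 0.8 μg at each time; at 12 h both Prdm1 (log2 3.20 ± 0.43, adjusted p = 3.42e-11) and Bach2 were higher with 80 μg.

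**Figure D5:**
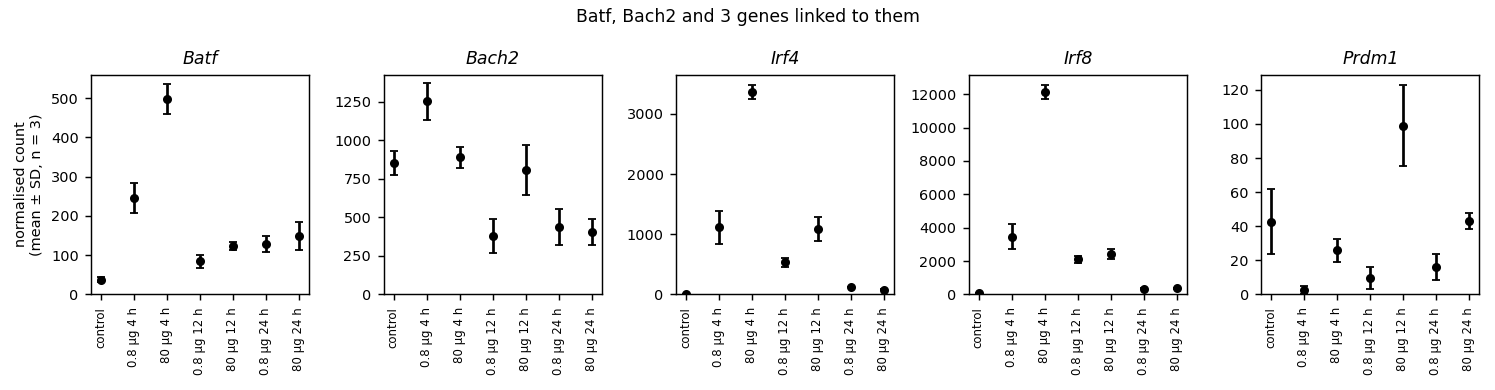
Normalised counts (vertical axis, linear, mean ± SD, n = 3 libraries) of Batf, Bach2, Irf4, Irf8 and Prdm1 in the 7 groups. Batf, Irf4 and Irf8 are highest with 80 μg at 4 h, Bach2 with 0.8 μg at 4 h, and Prdm1 with 80 μg at 12 h.

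Genes known as joint NFAT and AP-1 targets were mostly higher at 4 h. Of 9 listed, 6 were tested, and 5 were called higher than control with 0.8 μg and 6 with 80 μg, and 0 lower, against 17.3% and 18.4% of all genes called higher. Il2 means went from 5.92 to 155 with 0.8 μg and 1514 with 80 μg (dose difference log2 3.21 ± 0.33, adjusted p = 1.07e-19). Ifng stood at means of 4.11 and 315 (log2 5.23 ± 0.76, adjusted p = 3.61e-09). Its 80 μg libraries had 52.3, 122 and 772 normalised counts, so 1 library held most of the mean, and all lay above the 0.8 μg libraries, at up to 7.07. Fasl went the other way between doses, at 329 with 0.8 μg and 96.4 with 80 μg (log2 -1.75 ± 0.27, adjusted p = 7.18e-09).

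Among 12 other immediate early genes, 8 were called higher than control with 0.8 μg at 4 h and 6 with 80 μg, with 1 lower each, where 17.3% and 18.4% of all genes were called higher and 23.4% and 25.1% lower. From 4 h to 12 h 10 and 11 of the 12 were called lower, where 7.98% and 9.1% of all genes were. Egr1, like Fos, had its highest mean with 0.8 μg at 4 h: 178 in untreated cells, 559 with 0.8 μg and 179 with 80 μg (dose difference log2 -1.62 ± 0.23, adjusted p = 1.64e-10). Egr2 was higher with 80 μg (102 and 207, log2 1.00 ± 0.31, adjusted p = 0.013).

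Of 20 listed kinases and SRF factors upstream of AP-1, 18 were matched and tested. At 4 h against control, 2 were called higher and 6 lower with 0.8 μg, and 3 and 6 with 80 μg, where 17.3% of all genes were called higher and 23.4% lower with 0.8 μg, and 18.4% and 25.1% with 80 μg. Between doses at 4 h, 2 of 17 tested were called higher with 80 μg and 1 lower (Elk3), where 3.12% and 2.74% of all genes were. Map2k3, a kinase of the p38 pathway, was higher with 80 μg than with 0.8 μg at 4 h (808 and 1791, log2 1.14 ± 0.16, adjusted p = 3.32e-11), as was Elk1, a partner of SRF (54.2 and 134, log2 1.28 ± 0.29, adjusted p = 2.62e-04). Srf itself was at 167 in untreated cells and at 254 and 237 at 4 h, and its dose difference did not pass (log2 -0.10, adjusted p = 0.875).

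FOS and JUN genes are also known to respond to cell handling, so 12 heat shock and stress genes were followed. Their summed normalised counts ran from 1766 to 2488 in untreated cells and from 13107 to 16033 at 4 h, from 17712 to 29069 at 12 h and from 5643 to 9252 at 24 h, and 7 of 11 tested were called higher than control at 4 h with each dose and 0 lower, where 17.3% of all genes with 0.8 μg and 18.4% with 80 μg were called higher. Between doses the sums overlapped at each time. With 80 μg, 1 of 11 was called higher at 4 h (Gadd45g) and 0 lower, where 3.12% and 2.74% of all genes were. At 12 h 0 of 11 were called, though Gadd45b was lower by adjusted p (0.00197), and at 24 h 1 of 10 was called lower (Gadd45b, log2 -1.51) and 0 higher, where 0.673% of all genes were called lower. Their part in the changes against control was not tested.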

How the data were processed

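CD4+ T cells of 21 mice were profiled by 3' mRNA sequencing (QuantSeq). Per the labels and methods, the authors aligned trimmed reads with STAR 2.5.2a to mm10 (GRCm38) and counted reads per gene with HTSeq, and the read counts were deposited. The strand setting, annotation release and use of molecular identifiers are not given in the sources used here. The authors also deposited regularised log2 values from DESeq2, used here only for gene names and likeness of patterns.

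From the counts, genes with at least 10 reads in total were fitted with DESeq2 1.42.0 in R 4.3.3, as in the study's methods, with 1 coefficient for each of the 7 groups over 21 libraries. Contrasts used the Wald test with normal shrinkage of log2 fold changes, and dose by time was tested by likelihood ratio in the 18 immunised libraries; adjusted p-values are Benjamini-Hochberg over all genes tested. Where the adjusted p of a gene was not given by DESeq2, it was not counted. A gene with 0 reads was set at a floor of 3 reads per library for bounds.

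The alternatives were edgeR 4.0.16 (quasi-likelihood, TMM), TMM and library-total scaling in DESeq2, no filter, filterByExpr, no shrinkage, adjusted p alone, only the 6 libraries compared, a replicate block and leaving out each library. Where 13 alternatives are counted, no shrinkage and adjusted p alone are not among them. Tested on simulated data for 80 μg against 0.8 μg at 4 h (15300 genes), DESeq2 recovered 90% of 100 genes changed by 1.5 on the log2 scale and 99% of 100 changed by 3. The changed genes were drawn from those with higher counts, so genes of low count such as Fosb and Atf3 were not covered. No change as small as the fold threshold was simulated.

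The members and gene lists were chosen with earlier results of these data known. For most lists counts of calls are given in the comparisons described, and for cell type markers mainly summed levels; the genes named are the members, the called genes with the largest change each way, genes among the 3 nearest in pattern to a member with a mean of 20 or more, and others chosen after their values were seen. Those others include Mafg, Mafk, Nfe2l2, Crem, Creb1, Atf6, Srf, Cd79a, Ms4a1, Cd3e and Prdx2. No 2 libraries agreed within sampling noise. The values of 1 marker gene are not reported here.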

Additional observations from a re-analysis of the deposited data

Results flagged for a closer look

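The difference between doses changed with time for 2 members, by the likelihood ratio test of the dose by time terms in DESeq2. Junb had an adjusted p of 1.41e-07: it was higher with 80 μg in 3 of 3 libraries at 4 h and lower in 3 of 3 at 24 h, and the 24 h difference alone did not pass (adjusted p = 0.255). Bach2 had an adjusted p of 1.07e-06: its values were lower with 80 μg in 3 of 3 libraries at 4 h and higher in 3 of 3 at 12 h, and the 4 h difference alone did not pass (adjusted p = 0.0619; 3.48e-05 to 0.256 over the alternatives).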

How the results depend on the processing

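No value with an adjusted p under 0.05, in the fit reported or in the alternative, changed sign. Over members and comparisons, the alternatives other than leaving out a library, no shrinkage and adjusted p alone gave 774 values on the same side of the threshold. With these, 7 values were newly past it and 9 no longer past it. Leaving out 1 library gave 638, 12 and 34. The count of members called between doses at 12 h was 0 with only the 6 libraries compared, where Bach2 stood at 0.94. With adjusted p alone, the counts from 12 h to 24 h were 5 with 0.8 μg and 7 with 80 μg, since no fold was asked for. Leaving out 1 library gave 6 members called in each case against control at 4 h with 0.8 μg and 5 to 6 with 80 μg, 4 to 5 and 3 to 4 at 12 h, and 2 to 3 with each dose at 24 h. It gave 1 to 4 members between doses at 4 h (1 without the third 0.8 μg library), 0 to 1 at 12 h (0 without the third 0.8 μg or the first 80 μg library) and 0 to 1 at 24 h (Fosl2, without the second 0.8 μg library). From 4 h to 12 h it gave 5 to 6 with 0.8 μg and 5 in each case with 80 μg, and from 12 h to 24 h it gave 1 to 3 with 0.8 μg (1 without the third library at 24 h) and 1 to 5 with 80 μg (1 without the first library at 12 h, and 2 without the first or the second at 24 h). Junb and Bach2 passed the dose by time test in each alternative run, and leaving out 1 library gave 2 to 3 members.

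Replicate numbers did not pair the libraries: in 0 of 13 comparisons were all 3 pairs correlated above 0.1 (10 of 39 pairs were, range -0.183 to 0.205). With the replicate block the counts over the comparisons were 6, 5, 5, 3, 2 and 3 against control, 3, 1 and 0 between doses, and 6, 5, 3 and 4 between times, and Atf3 with 80 μg at 4 h against control was the 1 call lost (adjusted p = 0.119).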
